A study of Mus musculus with 20 samples.

Results

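Klf2, Klf4 and Klf5 are the Krüppel-like transcription factors most closely tied to naive pluripotency in mouse embryonic stem cells. They were taken by gene symbol, whatever their values, from a table of read counts for 21361 genes in 20 mouse poly(A) RNA libraries. All 3 passed the filter on low counts that left 16363 genes for testing. The series asks about the potency of primordial germ cells (PGCs) placed in early embryos, and each library is labelled as a cell line. Naive lines are either embryonic stem cells (ESCs) or lines labelled PGC-ESC, after PGCs.

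The 7 groups share the species. The growth protocol, stated alike for all libraries, is that of ESCs: a gelatin-coated culture in N2B27 medium with LIF, the GSK3 inhibitor CHIR99021 and the MEK inhibitor PD0325901. It does not say whether EpiLCs were kept in this medium. ESC Host lines (n = 4) are wildtype C57Bl6J lines derived from the host embryos at the same time as the PGC-ESCs. PGC-ESC DKO lines (n = 3) carry knockouts of both Puma and Noxa, genes for p53-induced promoters of cell death, on the C57Bl6J label. ESC BaxHet (n = 1), ESC BaxKO (n = 2, derived earlier) and PGC-ESC BaxKO (n = 5) carry 1 or no intact copy of Bax, a pore-forming death protein, on the label C57Bl6J/129SvEvRoEp. Both EpiLC groups hold epiblast-like cells (EpiLCs) converted in culture: EpiLC Host (n = 2) came from ESC Host 3 and 4, and EpiLC DKO (n = 3) came from PGC-ESC DKO 1 to 3. How the conversion was done, and in which medium, is not given here. Between the Bax and other lines, strain, Bax genotype and time of derivation cannot be told apart. Between PGC-ESC BaxKO and PGC-ESC DKO, the Puma and Noxa genotype label differs as well and cannot be told apart from these. Between PGC-ESC DKO and ESC Host, origin and genotype cannot be told apart.

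Library totals ran from 14255399 to 33376660 counts, and replicate lines differed by more than counting error (chi-square per gene of 7.10 to 240 over 24 pairs). Bax was at 1.66 to 2.43 CPM (counts scaled by the library total) in the 7 BaxKO libraries, 110 in BaxHet and 229 to 533 in the other 12. Noxa (Pmaip1) was at 1.26 to 5.69 CPM in the 6 libraries labelled DKO and 4.34 to 333 elsewhere. Puma (Bbc3) was at 27.5 to 90.5 CPM in those 6 and 28.2 to 94.3 elsewhere, so its gene count does not separate the groups, and DKO is used here as a label only. ESC Host 4 and PGC-ESC DKO 2 stood apart. Their transcripts over 6 kb (1393 genes) were low against those under 1.5 kb (866 genes), by -1.17 and -1.06 on the log2 scale, against -0.30 to 0.55 in the other 13 naive libraries. Those libraries also had the highest ribosomal Rn45s counts among the naive libraries, 51924 and 45205 CPM.

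Krüppel-like factors bind GC-rich and CACCC sequences through a zinc-finger domain at their carboxyl end. In naive ESCs Klf2, Klf4 and Klf5 share many target genes with Nanog, Esrrb and Pou5f1 and can stand in for each other, and their joint loss leads to differentiation. Klf4 is a target of LIF signalling through STAT3, and Klf2 is a known target of the ERK5-MEF2 pathway in blood vessel cells. All 3 genes are known to be switched down as cells leave the naive state for the formative state that EpiLCs model.

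On build mm10 (GRCm38, GENCODE vM21), Klf2 (ENSMUSG00000055148.7) spans chr8:72319033-72321656 on the plus strand, with 3 exons. Klf4 (ENSMUSG00000003032.8) spans chr4:55527143-55532466 on the minus strand, with 5 exons in its longest transcript. Klf5 (ENSMUSG00000005148.8) spans chr14:99298691-99315036 on the plus strand, with 4 exons in its longest transcript. RefSeq's GRCm38.p6 promoter table matched 2 of the 3 genes, Klf2 and Klf4. The stretches just upstream of both transcription starts are shown because these genes fell together and because KLF proteins read GC-rich and CACCC sequences. They lie at chr8:72318812-72319032 on the plus strand (221 bases) and chr4:55532476-55532725 on the minus strand (250 bases). Capitals mark GGGCGG, the GC box, on either strand.
Klf2: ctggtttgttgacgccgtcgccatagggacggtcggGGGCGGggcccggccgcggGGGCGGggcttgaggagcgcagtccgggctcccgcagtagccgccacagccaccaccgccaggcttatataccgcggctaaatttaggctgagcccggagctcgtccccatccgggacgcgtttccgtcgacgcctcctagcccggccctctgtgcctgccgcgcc
Klf4: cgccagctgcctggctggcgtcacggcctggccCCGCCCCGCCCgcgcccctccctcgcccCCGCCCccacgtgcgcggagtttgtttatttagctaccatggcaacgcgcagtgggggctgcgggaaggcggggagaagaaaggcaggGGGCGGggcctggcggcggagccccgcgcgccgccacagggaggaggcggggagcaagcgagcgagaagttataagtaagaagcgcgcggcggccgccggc
The Klf2 stretch is 71.5% G or C and holds 2 GC boxes. The Klf4 stretch is 74% G or C and holds 4, of which 1 reads on the plus strand, 3 on the minus strand and some overlap. Over 32851 promoter windows of 250 bases, the median was 52.4% G or C. At least 1 GC box on either strand was held by 32.7% of windows, and at least 3 by 8.47%. Neither stretch matched CACCC (52.0% of windows), TTCNNNGAA, the STAT letters (7.02%), or the octamer ATGCAAAT (1.60%), each searched on both strands. These matches are letters in a window and were not measured as binding.

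The 3 genes were abundant in every naive library and low in every EpiLC library. In CPM by library total, Klf2 was at 385 ± 41.7 over the 15 naive libraries and 14.7 ± 7.23 over the 5 EpiLC libraries (mean ± SD). Klf4 went from 411 ± 95.3 to 4.57 ± 3.54, and Klf5 from 170 ± 30.1 to 14.6 ± 2.39. Among the 16363 tested genes, 2.54% had a higher mean naive CPM than Klf2, 2.33% than Klf4 and 7.51% than Klf5.

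Klf2 in ESC Host was at 429, 410, 285 and 407 CPM in lines 1 to 4. It was at 352 in ESC BaxHet and at 408 and 321 in ESC BaxKO 1 and 2. PGC-ESC BaxKO lines 1 to 5 gave 403, 371, 426, 405 and 370 CPM. The PGC-ESC DKO lines gave 356, 426 and 402. Host line 3 was the lowest of the 15, and otherwise the groups overlapped, with group means from 352 to 395. In EpiLCs, Klf2 was at 6.38 and 9.39 CPM in Host lines 3 and 4 and at 15.1, 18.1 and 24.7 in DKO lines 1 to 3. The EpiLC DKO libraries were all above the EpiLC Host libraries for Klf2, and every EpiLC library was far below every naive one.

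Klf4, one of the original reprogramming factors, varied most among naive lines. ESC Host lines 1 to 4 were at 450, 635, 398 and 231 CPM, a 2.75-fold spread that held both the highest and the lowest of the 15. ESC BaxHet was at 348, and ESC BaxKO 1 and 2 were at 481 and 469. PGC-ESC BaxKO lines were at 417, 454, 330, 436 and 420, and PGC-ESC DKO lines at 345, 289 and 459. The order of group means ran from ESC BaxKO (475) through ESC Host (429), PGC-ESC BaxKO (411) and PGC-ESC DKO (364) to ESC BaxHet (348), and every neighbouring pair of ranges overlapped. In EpiLCs, Klf4 was at 2.68 and 3.05 CPM in the Host lines and 2.46, 3.82 and 10.8 in the DKO lines. Those values rest on 144 and 358 counts in all, and DKO line 3 alone was well above the rest.

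Klf5, which also acts in the earliest lineages of the embryo, was the least abundant of the 3 in naive cells. It was at 165, 166, 210 and 108 CPM in ESC Host 1 to 4, 194 in ESC BaxHet, and 177 and 180 in ESC BaxKO. PGC-ESC BaxKO lines lay between 176 and 192, and PGC-ESC DKO lines were at 170, 96.2 and 171. The lowest Klf5 values were in the libraries poor in long transcripts, ESC Host 4 and PGC-ESC DKO 2, which were also the lowest for Klf4. In the other 13 naive libraries, naive levels and the length balance had Pearson's r of -0.02 for Klf2, -0.10 for Klf4 and -0.25 for Klf5; with all 15 it was -0.60, 0.51 and 0.71. These values describe libraries that differ in Rn45s and group too, and the part of RNA quality was not tested. EpiLC levels of Klf5 were 17.7 and 11.9 CPM in the Host lines and 14.7, 15.9 and 12.6 in the DKO lines, with no separation of those groups.

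**Figure D1:**
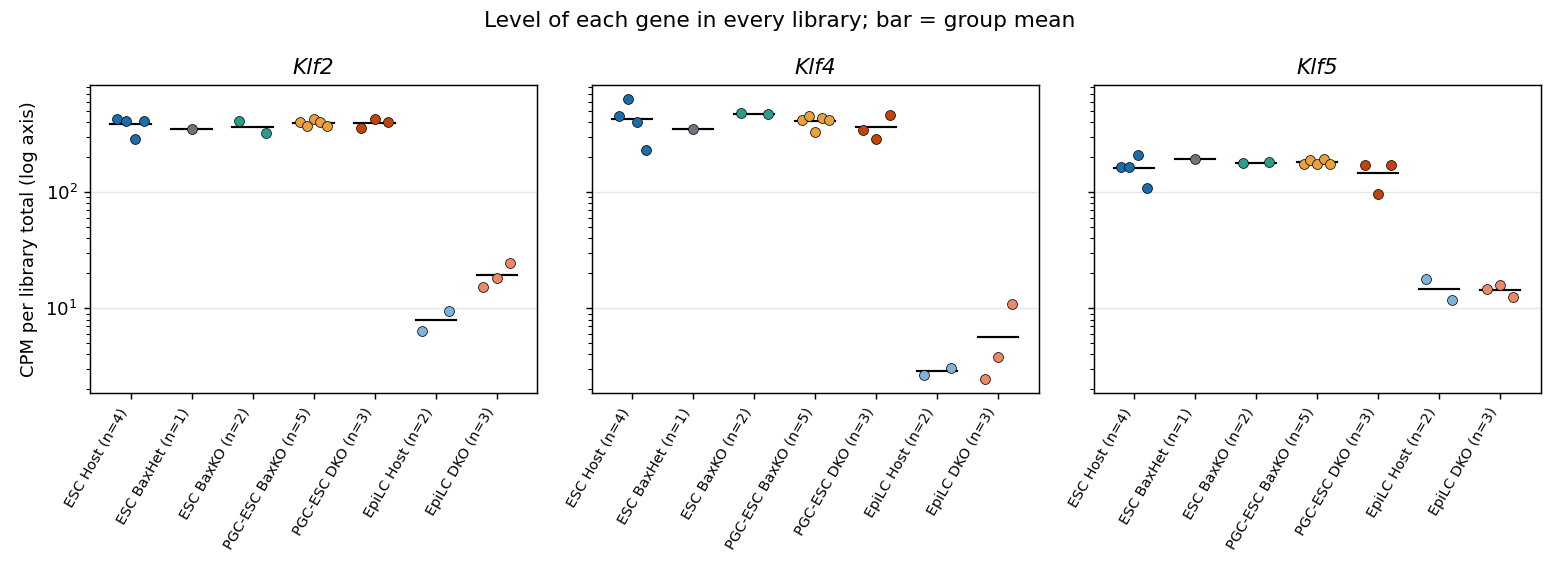
CPM by library total (log axis) of Klf2, Klf4 and Klf5 in each of the 20 libraries, by group, with a bar at the group mean. Every EpiLC library lies below all 15 naive libraries, and Klf4 reaches the lowest EpiLC level, 2.46 CPM.

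**Figure D2:**
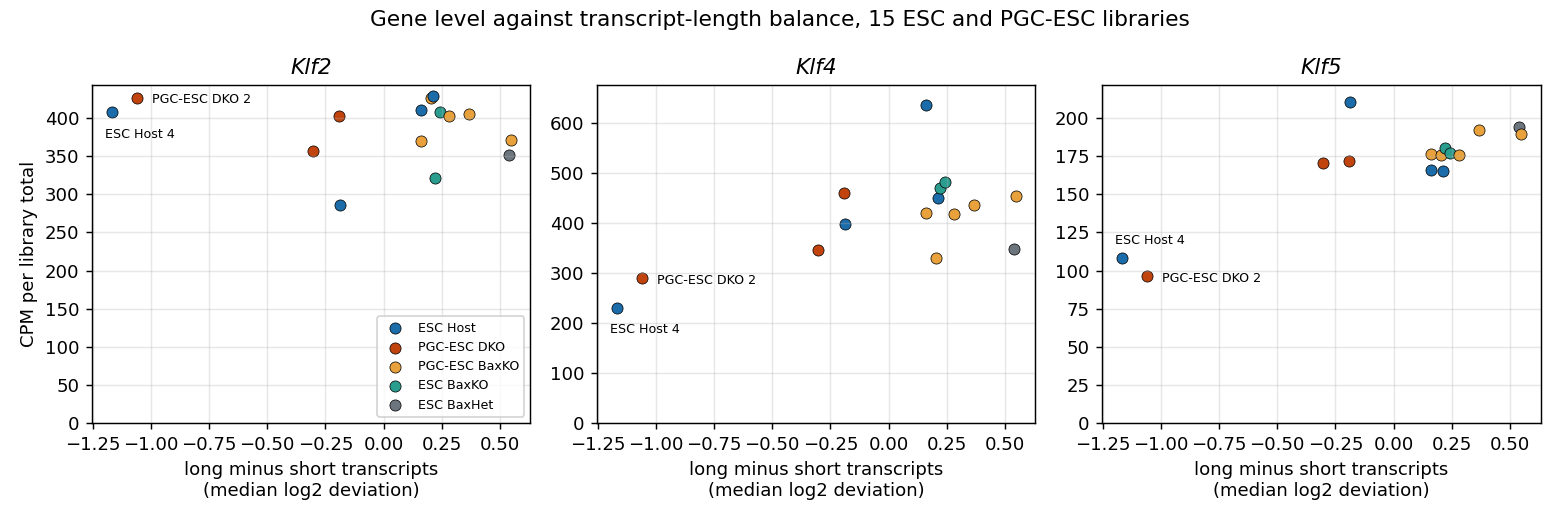
CPM by library total of each gene (vertical) against the library's median log2 deviation of long minus short transcripts (horizontal) in the 15 naive libraries, coloured by group. ESC Host 4 and PGC-ESC DKO 2, at -1.17 and -1.06, have the lowest levels of Klf4 and Klf5 but Klf2 levels of 407 and 426 CPM within the range of the rest.

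All 3 genes fell in EpiLCs of both sets of lines. In EpiLC Host against ESC Host, 3 of 3 were called lower by edgeR's quasi-likelihood test at an adjusted p under 0.05, where 44.0% of all tested genes were called in either direction and 21.7% were called lower. Klf2 fell by 5.74 ± 0.28 (log2 fold change ± standard error; adjusted p = 1.57e-10), from 400 to 7.44 CPM after TMM scaling. Klf4 fell by 7.33 ± 0.56 (adjusted p = 2.37e-08), from 438 to 2.71. Klf5 fell by 3.59 ± 0.25 (adjusted p = 8.53e-09), from 168 to 14.0. Ranked by fall, Klf4 was number 57, Klf2 number 165 and Klf5 number 535 of the 16363 genes. Among the 2319 genes above a mean of 100 CPM in the naive libraries, they were numbers 6, 13 and 41.

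EpiLC DKO against PGC-ESC DKO compares other libraries, but in the same fit, with the same scaling and a shared estimate of the spread. It also called 3 of 3 lower, where 47.6% of genes were called in either direction and 22.5% lower. The log2 fold change was -4.56 ± 0.22 for Klf2 (adjusted p = 8.98e-11), -6.24 ± 0.45 for Klf4 (9.18e-09) and -3.53 ± 0.22 for Klf5 (1.59e-09). Klf4 was number 73, Klf2 number 199 and Klf5 number 370 by fall. EpiLC DKO 3 decided the size for Klf4, which fell by 7.08 without it. In bulk RNA, fewer cells that express a gene and less RNA per cell cannot be told apart.

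Followed line by line, every converted line lost most of its transcripts of each gene. Klf2 was 44.7-fold and 43.4-fold lower in the EpiLCs of Host lines 3 and 4 than in their parent ESCs, and 23.6, 23.6 and 16.3-fold lower in DKO lines 1 to 3. Thus 2.24% and 2.31% of the parent level remained in the Host lines and 4.24 to 6.14% in the DKO lines. Klf4 was 149, 75.6, 140, 75.8 and 42.4-fold lower in the same order, with 0.673 to 2.36% of the parent level remaining. Klf5 was 11.9, 9.10, 11.6, 6.05 and 13.6-fold lower, with 7.33 to 16.5% remaining. Klf4 had the greatest and Klf5 the smallest fold in each of the 5 lines.

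**Figure D3:**
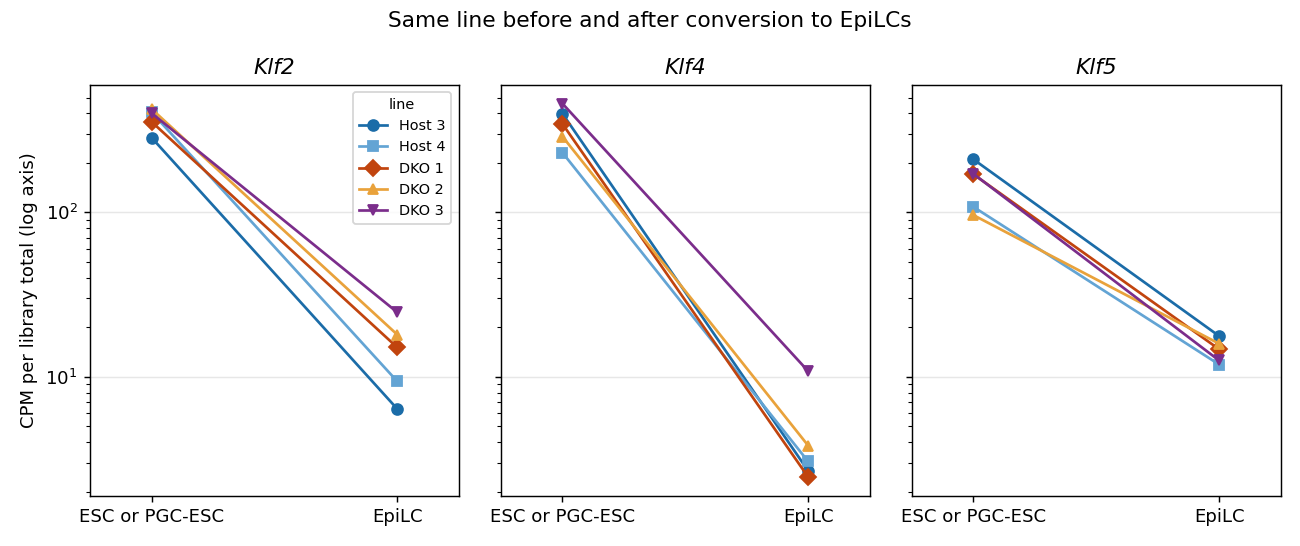
CPM by library total (log axis) of each gene in the ESC or PGC-ESC parent and in the EpiLCs of the same line, for Host lines 3 and 4 and DKO lines 1 to 3. Each line falls for each gene, from 42.4-fold to 149-fold for Klf4 and from 6.05-fold to 13.6-fold for Klf5.

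The 3 genes fell by different amounts. The difference between log2 levels of a pair of genes was compared between the 5 EpiLC and the 7 C57Bl6J naive libraries. The test was an exact permutation test, two-sided and adjusted over 3 pairs. It pooled Host and DKO lines and ignored that the parents of the 5 EpiLC libraries are among the 7 naive ones. Klf2 minus Klf4 was 1.18 to 2.58 in EpiLCs and -0.63 to 0.82 in naive libraries, a difference of 1.75 (exact permutation p = 0.00253, adjusted 0.00379). Klf2 minus Klf5 was -1.46 to 0.97 in EpiLCs and 0.44 to 2.15 in naive libraries, which overlap, a difference of -1.47 (exact permutation p = 0.00505). Klf4 minus Klf5 was -2.69 to -0.21 in EpiLCs and 0.92 to 1.94 in naive libraries, a difference of -3.23 (exact permutation p = 0.00253, adjusted 0.00379). Within the 5 same-line pairs the differences were 1.61, -1.48 and -3.09, each with the same sign in all 5, and the exact sign-flip p was 0.0625, the smallest that 5 pairs allow. Without ESC Host 4 and PGC-ESC DKO 2 the differences were 2.03, -1.20 and -3.23.

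The order of the 3 genes by level also differed between the states. Per kilobase of longest transcript, Klf2 was above Klf4 and Klf4 above Klf5 in 15 of 15 naive libraries, with median ratios of 1.52 and 2.64. In EpiLCs Klf4 was below Klf5 in 5 of 5 libraries, with ratios of 0.17 to 0.95. In EpiLC DKO 3 they were nearly level, at 3.57 and 3.75 CPM per kilobase. Klf2 was above Klf5 in 4 of 5, the exception being EpiLC Host 3. Means per kilobase were 208, 136 and 50.7 CPM for Klf2, Klf4 and Klf5 in naive libraries and 7.97, 1.51 and 4.34 in EpiLCs.

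Set against the other 14 Krüppel-like factors in the table, Klf2, Klf4 and Klf5 made up the greater part of the family's RNA in naive cells and little of it in EpiLCs. Per kilobase they summed to between 65.9 and 74.9% of the 17 genes in the naive libraries, where they held the top 3 places by mean. In EpiLCs their share was 7.04 to 15.8%, and Klf9, Klf13 and Klf16 held the first 3 places in each library. These leading factors changed far less in CPM per kilobase, from 43.0 to 23.5 for Klf9, from 14.5 to 23.1 for Klf13 and from 28.5 to 22.9 for Klf16. Annotated length stands in here for the isoforms actually made, which the counts do not show.

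**Figure D4:**
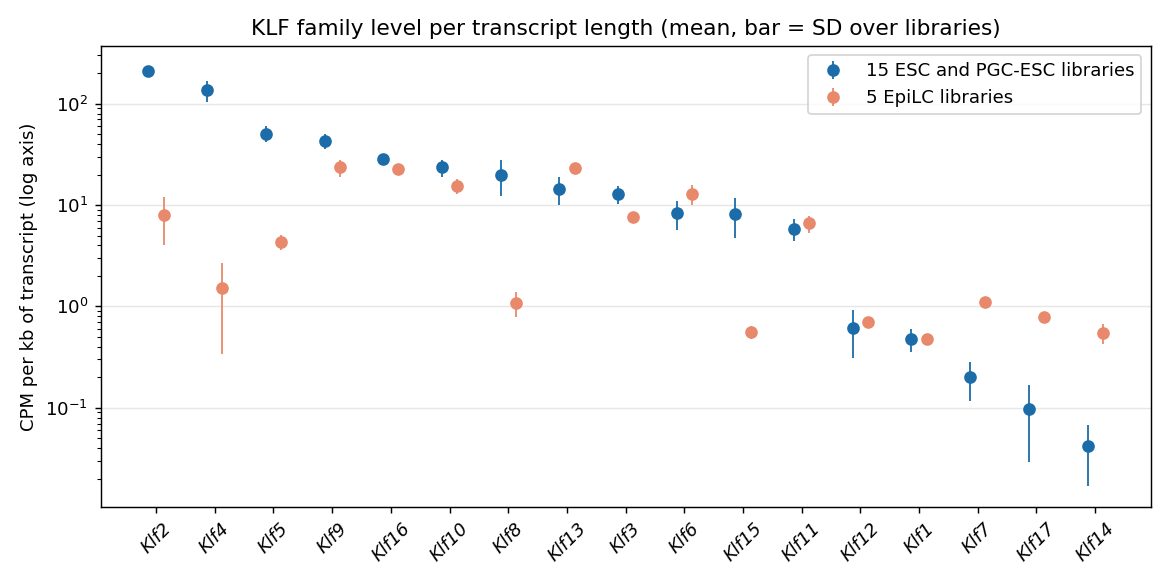
Mean CPM per kilobase of longest transcript (log axis; bars, SD over libraries, with the lower bar cut short where it would pass 0) of the 17 Krüppel-like factor genes in 15 naive and 5 EpiLC libraries. Klf2, Klf4 and Klf5 are the top 3 in naive libraries, at 208, 136 and 50.7, and drop to 7.97, 1.51 and 4.34 in EpiLCs.

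Of the other 14 Krüppel-like factors, 5 rose and 6 fell in each EpiLC comparison. Of all tested genes, 44.0% were called in either direction in Host and 47.6% in DKO lines. The median log2 fold change of the 14 was -0.05 in Host and -0.02 in DKO lines, against -0.03 and 0.01 over all tested genes. The falls in Host lines were led by Klf8, a factor of the repressor branch of the family (-4.17 ± 0.34, adjusted p = 4.99e-08), and Klf15, known for metabolic control in muscle and liver (-3.28 ± 0.36, adjusted p = 1.16e-06). In DKO lines they gave -3.40 and -3.31. Klf14 rose by 2.93 and 3.10 but stayed at 1.17 to 2.10 CPM in EpiLCs. Klf7, known from neurons, rose by 2.39 in Host and 2.57 in DKO lines, and Klf13 by 0.89 and 1.07.

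Their partner regulators moved in groups that differed in direction. Of 10 other genes of the naive network, 9 fell and 0 rose in each comparison, with median log2 fold changes of -4.59 and -3.82. Over all tested genes, 21.7% were called lower in Host and 22.5% in DKO lines. Gbx2 was not called, at 0.38 and 0.31. Tfcp2l1, a STAT3 target and partner of Klf4 in maintaining naive cells, fell in Host and DKO lines, with log2 fold changes of -7.13 ± 0.28 and -6.53 ± 0.23. Tbx3 gave -7.74 and -7.27, Esrrb -4.77 and -4.39, and Zfp42 -2.61 and -2.38. In both comparisons the fold change of Klf2 lay between those of Tfcp2l1 and Esrrb, and that of Klf5 between those of Esrrb and Zfp42.

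The core factors Pou5f1, Sox2 and Sall4 also fell, 3 of 3 in each comparison, by less than Klf5. The share of all tested genes called lower was 21.7% in Host and 22.5% in DKO lines. Sox2 gave -2.92 and -2.62, Pou5f1 -1.21 and -1.09, and Sall4 -0.99 and -0.78. Of 9 formative genes, 8 rose and 0 fell in each comparison, with medians of 2.90 and 3.42. Among the 16363 tested genes, 3663 were called higher in Host and 4105 in DKO lines. Fgf5 rose by 7.38 and 7.17, Pou3f1 by 5.71 and 6.23, and Sall2 by 3.76 and 3.01. Otx2 was not called in Host lines (1.39, adjusted p = 0.0968), and Lef1 was not called in DKO lines (1.03, adjusted p = 0.139).

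Genes of the pathways known to feed Klf4 and Klf2 were counted beside the 44.0% and 47.6% of all genes called in the EpiLC comparisons. By direction, 21.7% in Host and 22.5% in DKO lines were called lower, and 3663 and 4105 of 16363 genes were called higher. Of 7 LIF-STAT3 genes, 4 fell and 0 rose in each comparison, and the 4 were the receptor chains Lifr and Il6st, the transcription factor Stat3 and its feedback target Socs3. Stat3 gave -3.08 ± 0.25 and -2.80 ± 0.21, Socs3 -2.95 and -3.08, Lifr -2.90 and -2.59, and Il6st -2.03 and -1.97. The ligand Lif and the kinases Jak1 and Jak2 were not called, with values from -0.43 to 0.20. Of 6 ERK5-MEF2 genes, 2 rose and 0 fell in each comparison, and in DESeq2 4 rose in Host lines. With both directions counted, 2 of 6 is a smaller share than over all genes, but among calls higher it is not. A difference between the pathways was not tested. Map3k3, which encodes the kinase MEKK3, rose by 0.56 and 0.59, and Mef2c rose to 0.68 to 1.16 CPM in EpiLCs, with ESC Host and PGC-ESC DKO libraries at 0 to 0.05. Mapk7, which encodes ERK5, was not called, at -0.10 and 0.18. Whether the medium differed between the states is not given here, and its part was not tested.

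Neither converted set was shown to respond differently from the other. The test of the difference between the responses of DKO and Host lines gave 1.18 ± 0.29 for Klf2 (edgeR's adjusted p = 0.955 over all genes, 0.000709 before adjustment), 1.09 ± 0.57 for Klf4 and 0.06 ± 0.29 for Klf5. None of the 3 was called, where 0.00611% of genes (1 gene) were; with the line as a block, 0 genes were. For Klf4 the difference was 0.26 ± 0.39 without EpiLC DKO 3 and 0.51 ± 0.47 with the line as a block, so its size depends on both. The 95% intervals in the fit of all libraries were 0.58 to 1.79, -0.10 to 2.29 and -0.56 to 0.67.

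EpiLC DKO against EpiLC Host, taken directly, gave 1.30 ± 0.23 for Klf2, with ranges that did not overlap (15.1 to 24.7 against 6.38 to 9.39 CPM). Its adjusted p was 0.0544, so 0 of 3 members were called, where 0.0428% of genes were. Klf2 passed in DESeq2 (1.29, adjusted p = 0.000134), with no filter on low counts (1.29, 0.034) and without EpiLC DKO 1 (1.45, 0.0293). Klf4 gave 0.95 ± 0.46 (95% interval -0.03 to 1.93), but 0.11 ± 0.33 without EpiLC DKO 3, and Klf5 -0.03 ± 0.23 (-0.50 to 0.45), and both had overlapping ranges. In these comparisons origin, genotype label and line cannot be told apart.

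EpiLC DKO 3 had the most Klf2 and Klf4 of the 5 EpiLC libraries, and its other naive genes were mixed. Of the 10 other naive network genes it was the highest EpiLC library for 5: Tfcp2l1 (13.1 CPM), Tbx3 (4.17), Nr5a2 (2.18), Nr0b1 (34.5) and Prdm14 (0.498). It was the lowest for Nanog, at 46.6 against 122 to 164. Its summed level of 5 naive ESC markers, which include Nanog, was the lowest of the 5 (141 CPM, against up to 252). Of the other markers in that sum, Tfcp2l1 and Tbx3 were highest there. Esrrb (46.4 CPM) and Zfp42 (30.6) lay within the 26.1 to 49.6 and 25.2 to 32.1 of the other EpiLC libraries. EpiLC DKO 3 had the highest sum of 5 EpiLC markers (2355, from 1261). Of the endothelial markers, a cell type known for Klf2 and Klf4, all 4 in the table were highest in that library among the EpiLCs, and their sum was 35.0 CPM there and 10.7 to 22.3 in the other 4. Pecam1 was at 24.7 CPM against 7.70 to 15.3, Tek at 9.46 against 2.72 to 6.77, Kdr at 0.622 against 0.0599 to 0.255, and Cdh5 at 0.249 against 0 to 0.189. The part of such cells in the Klf2 and Klf4 values was not tested. Pecam1 is also known from naive ESCs, where it was at 62.5 to 179. Tek too was higher in every naive library, at 10.1 to 34.2 CPM, than in any EpiLC library. Kdr and Cdh5 stayed under 1 CPM in all 5 EpiLC libraries, so their order there rests on few counts.

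Between naive groups no member was called in any of 4 comparisons. PGC-ESC DKO against ESC Host, where 0.116% of genes were called, gave 0.11 ± 0.18 for Klf2, -0.14 ± 0.33 for Klf4 and -0.08 ± 0.18 for Klf5. The 95% intervals were -0.26 to 0.48, -0.83 to 0.54 and -0.47 to 0.30. PGC-ESC BaxKO against ESC BaxKO, where 0.0367% of genes were called, gave 0.10 ± 0.19, -0.23 ± 0.35 and 0.01 ± 0.20. For Klf4 the ranges did not overlap in that comparison (330 to 454 against 469 to 481 CPM), with a 95% interval of -0.97 to 0.52.

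ESC BaxKO against ESC Host, which crosses the strain labels, called 5.02% of all genes and none of the 3, with -0.15 ± 0.20 for Klf2, 0.10 ± 0.37 for Klf4 and 0.07 ± 0.21 for Klf5. PGC-ESC BaxKO against PGC-ESC DKO called 23.6% of genes and again none of the 3, with -0.17 ± 0.17, 0.02 ± 0.31 and 0.16 ± 0.18. The widest of these intervals, for Klf4 in ESC BaxKO against ESC Host, ran from -0.67 to 0.88. Klf5 ranges did not overlap between PGC-ESC BaxKO (176 to 192 CPM) and PGC-ESC DKO (96.2 to 171), with a 95% interval of -0.21 to 0.53. In that same comparison 5 of the other 14 Krüppel-like factors were called, all higher in PGC-ESC BaxKO, among them Klf8 by 1.15 ± 0.24 and Klf15 by 1.08 ± 0.25, and so was Il6st, by 1.32 ± 0.18. The Rn45s level also differed between these groups: it was 2044 to 5106 CPM in PGC-ESC BaxKO and 24395 to 45205 in PGC-ESC DKO. Within ESC Host, lines 1 and 2 of the low Rn45s set had 101 and 91.0 CPM of Klf8 and lines 3 and 4 of the high set 56.5 and 43.6. Klf15 was at 19.2 and 18.4 against 8.35 and 7.16 in the same lines. ESC BaxKO 2, of the high set, had 89.3 CPM of Klf8 and 32.4 of Klf15. ESC BaxKO 1, of the low set, had 120 and 26.4. In ESC BaxKO against ESC Host, 2 of the other 14 factors were called, Klf13 and Klf15 (1.11 ± 0.28), both higher. Il6st was called higher too (0.85 ± 0.20), and Klf8 was not called (0.47 ± 0.26). The part of the Rn45s difference in these values was not tested.

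**Figure D5:**
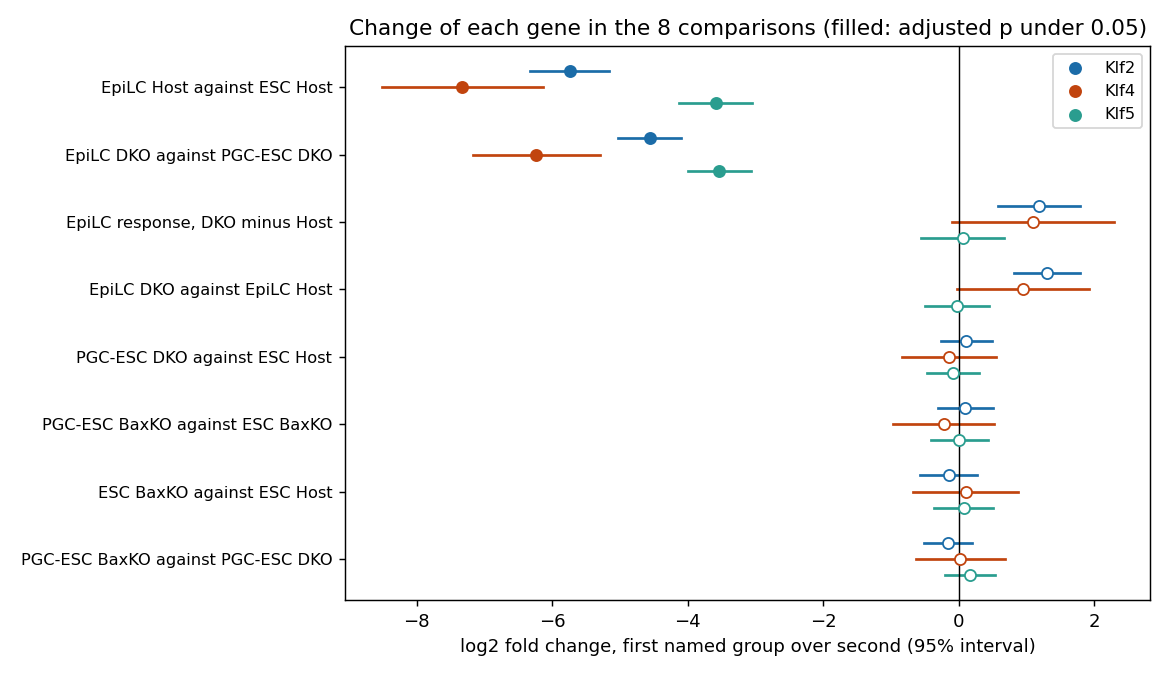
Log2 fold change of Klf2, Klf4 and Klf5 (point) with its 95% interval (line) in the 8 comparisons, from edgeR; filled points had an adjusted p under 0.05. The EpiLC comparisons stand at -7.33 to -3.53, and the other 6 hold open points only.

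Among the naive libraries, lines with more Klf2 tended to have less Klf5, more clearly after TMM scaling than by library total. Over 15 libraries, log2 TMM-scaled levels of Klf2 and Klf5 gave Pearson's r = -0.84 (permutation p = 0.0001, adjusted over 3 pairs 0.0003) and Spearman's rho = -0.79 (adjusted permutation p = 0.00171). Leaving out the pair farthest from the median of Klf2, PGC-ESC DKO 2 and ESC Host 3, r was -0.73, and it was also -0.73 without ESC Host 4 and PGC-ESC DKO 2. By Rn45s level, r was -0.70 in the 9 libraries at 1913 to 5106 CPM and -0.88 in the 6 at 18387 to 51924. By strain label, r was -0.46 in the 8 Bax lines and -0.92 in the 7 others. Scaled by library total instead, r over the 15 was -0.49. This relation was tested after its values were seen, and its p-values do not allow for that choice. Over the 15, Klf2 and Klf5 had r of -0.60 and 0.71 with the length balance. Without ESC Host 4 and PGC-ESC DKO 2 these were -0.02 and -0.25. The part of group, Rn45s and length balance in this relation was not tested.

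Klf2 and Klf4 gave r = -0.34 (rho = -0.18; adjusted permutation p = 0.213 for r and 0.522 for rho). Klf4 and Klf5 gave r = 0.41 (rho = 0.18; adjusted permutation p = 0.196 and 0.522), and -0.26 without ESC Host 4 and PGC-ESC DKO 2. Without the pair farthest from the median of the first gene, r was -0.29 and 0.38. Within the Rn45s sets r was 0.30 and -0.69 for Klf2 with Klf4 and -0.37 and 0.72 for Klf4 with Klf5, so neither relation held one sign within both sets.

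The genes most like each member differed between the members, as a description over libraries that share group, depth and length balance. Over the 15 naive libraries, of 8915 genes above a mean of 10 CPM, Klf2 was closest to Dnajc7 (r = 0.89), Snhg7 (0.86) and Rpl7 (0.86). Klf4 was closest to Rnf111 (0.90), Jmjd1c (0.88) and Man2b1 (0.88), and Klf5 to Spred2 (0.96), Prrc2a (0.96) and Cand1 (0.95). Over all 20 libraries, where the EpiLC fall sets the pattern, Klf2 was closest to Accsl, Hspb8 and H2-M5, Klf4 to Acsbg3, Nr5a2 and 2410137M14Rik, and Klf5 to Cobl, Ulk1 and Rfx2, each with r of 0.99.

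Marker sums matched the labels of both states. The 5 naive ESC markers summed to 2631 to 3957 CPM in naive libraries and 141 to 252 in EpiLCs, and the 5 EpiLC markers to 102 to 205 and 1261 to 2355. Dnmt3b had the highest mean of the 5 EpiLC markers, at 820 to 1550 CPM in EpiLCs. Dnmt3b, Pou3f1, Fgf5 and Sox3 were each higher in every EpiLC library than in any naive one. Otx2 was not: EpiLC Host 3 and 4 had 2.81 and 6.94 CPM, against 5.37 to 8.96 in PGC-ESC BaxKO. In EpiLC DKO it was at 10.7 to 36.1. Endothelial markers (4 of 5 in the table) summed to 78.5 to 203 and 10.7 to 35.0. Germ cell markers summed to 133 to 338 and 59.7 to 83.5, trophoblast markers to 20.8 to 62.0 and 34.8 to 49.1, and mesendoderm markers to 22.4 to 38.8 and 11.0 to 17.3. Primitive endoderm markers summed to 3.64 to 13.7 and 6.03 to 12.8, fibroblast and feeder markers to 1.74 to 15.6 and 15.3 to 22.6, and two-cell-like markers to 1.10 to 54.7 and 46.4 to 159. The part of other cells in the members' values was not tested.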

How the data were processed

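The deposited table holds raw counts by gene symbol for 20 libraries. Per the submitters' processing notes, STAR 2.7.7a and build mm10 were used. Which tool counted the reads, with which annotation and strand setting, was not given in the sources used here, and the labels name lines without saying how RNA was replicated, so p-values measure the spread between these libraries. All 20 libraries entered 1 fit of edgeR 4.0.16 (R 4.3.3), with a coefficient per group and 13 residual degrees of freedom; libraries were scaled by TMM, genes were filtered by filterByExpr, and contrasts used the quasi-likelihood F test. P-values were two-sided and adjusted by the Benjamini-Hochberg method over 16363 genes, and calls were made at 0.05. Log2 levels carried a prior count of 2. Standard errors and 95% intervals come from that fit. CPM per kilobase used the longest GENCODE vM21 transcript. Permutation tests used scipy 1.17.1, with 100000 resamples for correlations. The test was also run on simulated counts in which far fewer genes changed than in the EpiLC comparisons. Its outcome there is not reported here, and no result rests on it.

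EpiLC and parent libraries with the same number are of the same line by their labels, and their deviations from group means had correlations of 0.0931 to 0.185. Alternatives were RLE scaling, totals without Rn45s, no filter, DESeq2 1.42.0, the compared groups alone, a threshold of 0.01, a replicate block, a prior count of 0.5, ESC Host 3 and 4 alone and each library left out. The members, gene lists and alternatives were chosen with earlier results of these data known. Named list genes are up to 4 called members with the smallest adjusted p in each EpiLC comparison, and for likeness the 3 genes with the highest r. Gbx2, Otx2, Lef1, Map3k3, Mef2c, Mapk7, Lif, Jak1, Jak2, Nr5a2, Nr0b1, Prdm14, Nanog, Pecam1, Tek, Kdr and Cdh5 were named after their values were seen. Genes without a stated strand can share reads with antisense neighbours; no annotated gene overlaps the 3 members.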

Additional observations from a re-analysis of the deposited data

Results flagged for a closer look

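Klf2 in ESC Host had 1 library far from the rest. Host line 3 was at 285 CPM, and the other 3 lines were between 407 and 429. Its gap to the nearest was 0.848 of the group's range, above Dixon's critical value of 0.829 for 4 samples. Such a flag arises by chance in about 1 of 20 groups, and 6 groups of values were examined here. Line 3 also had the highest Klf5 of the 15 naive libraries, 210 CPM.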

How the results depend on the processing

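The fall of Klf2, Klf4 and Klf5 in both EpiLC comparisons kept its direction and its call under each of the 14 or 15 alternatives run for it, from -7.51 to -3.33 on the log2 scale with adjusted p up to 8.19e-05. Klf4 in DKO lines ran from -7.08 (without EpiLC DKO 3) to -5.84. Over all comparisons 330 of 363 alternatives for the members kept direction and call, 3 gained a call and 30 changed the sign of values that were not called. The gained calls are Klf2 in EpiLC DKO against EpiLC Host, at 1.2947 with no filter on low counts, at 1.2918 in DESeq2 and without EpiLC DKO 1, within 1.05 to 1.60 as libraries were left out. Without EpiLC DKO 3, Klf4 went from 0.95 to 0.11 in that comparison and from 1.09 to 0.26 in the difference of responses, which was 0.51 with the replicate block. The causes of these changes were not tested.

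With the replicate block (line as a block, paired by label), Klf2, Klf4 and Klf5 gave -5.69, -6.95 and -3.61 in Host and -4.60, -6.44 and -3.51 in DKO lines, with 6969 and 8092 genes called. The sign-flip test on paired lines gave 1.61, -1.48 and -3.09 for the differences between members, and 5 pairs cannot pass 0.05. In the naive comparisons lines share only a number (correlations of deviations from -0.236 to 0.0489), and the block by number gave -0.14 for Klf4 in ESC BaxKO against ESC Host and -0.0355 in PGC-ESC BaxKO against PGC-ESC DKO, with no member called. No paired analysis was possible for EpiLC DKO against EpiLC Host because they share only 1 number.

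Of the list counts, ERK5-MEF2 genes higher in EpiLC Host moved from 2 to 4 in DESeq2. Counts of called genes moved as follows. For the difference between the EpiLC responses, 1 became 5 in DESeq2, 0 in the compared groups alone, 0 with the replicate block, 3 without both ESC Host 4 and PGC-ESC DKO 2, and 0 to 3 as libraries were left out. EpiLC DKO against EpiLC Host had 7 calls, 33 in DESeq2 and 5 to 11 with libraries left out. PGC-ESC DKO against ESC Host had 19, then 92 (DESeq2), 9 (compared groups alone), 6 (block) and 14 to 44 (44 without ESC Host 4). PGC-ESC BaxKO against ESC BaxKO had 6, then 10 with no filter, 74 in DESeq2 and 0 to 12 with libraries left out, and 0 with RLE scaling, a threshold of 0.01, the compared groups alone or the block. ESC BaxKO against ESC Host had 821, then 224 at 0.01, 1419 in DESeq2, 136 in the compared groups alone, 180 with the block and 182 to 1015 with libraries left out. PGC-ESC BaxKO against PGC-ESC DKO had 3858, then 1385 at 0.01, 418 with the block and 1552 (without PGC-ESC DKO 2) to 4198.

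Members' uncalled values crossed 0 as follows. With both ESC Host 4 and PGC-ESC DKO 2 dropped, an alternative chosen after the data were seen, Klf5 gave -0.069 in the difference of responses, 0.04 in PGC-ESC DKO against ESC Host, -0.0371 in ESC BaxKO against ESC Host and -0.0634 in PGC-ESC BaxKO against PGC-ESC DKO, and Klf4 gave -0.0622 and -0.11 in the last 2. With ESC Host 3 and 4 alone, Klf4 in PGC-ESC DKO against ESC Host was 0.19. As libraries were left out, Klf5 ran from -0.21 to 0.37 in the difference of responses and from -0.29 to 0.29 in EpiLC DKO against EpiLC Host. In PGC-ESC DKO against ESC Host, Klf2 ran from -0.0024 to 0.21, Klf4 from -0.31 to 0.0681 and Klf5 from -0.22 to 0.12. In PGC-ESC BaxKO against ESC BaxKO, Klf2 ran from -0.0585 to 0.27 and Klf5 from -0.0152 to 0.0276. In ESC BaxKO against ESC Host, Klf2 ran from -0.33 to 0.0047, Klf4 from -0.0669 to 0.32 and Klf5 from -0.0358 to 0.23. In PGC-ESC BaxKO against PGC-ESC DKO, Klf4 ran from -0.0878 to 0.18 and Klf5 from -0.0381 to 0.30. Depth limits Klf4 in EpiLCs most, with 144 counts in EpiLC Host.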
